A study of Caenorhabditis elegans with 2 samples.

Results

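The PUF genes encode RNA-binding proteins of the Pumilio and FBF family. Here 9 of them were examined in lists of thresholded and candidate sites of a tagged nuclear Argonaute protein in worm chromatin. The 9 genes were fbf-1, fbf-2, puf-3, puf-5, puf-6, puf-7, puf-8, puf-9 and puf-11, taken by name from 19985 annotated protein-coding genes. The protein, HRDE-1 or WAGO-9, was mapped by ChIP-seq, in which DNA bound to an immunoprecipitated protein is sequenced, in Caenorhabditis elegans strain YL557. Animals were hermaphrodites collected as young adults 48 hours after release from L1 starvation. All carried 1 transgene that adds GFP and FLAG to the C-terminus of HRDE-1, and the labels name the antibody both as anti-GFP and as hrde-1. There was 1 group with 2 biological replicates, no group without the tag was among the samples, and the control that the authors used was not analysed here. Whole animals were used, so a site in germ cells cannot be told apart from a site in somatic cells.

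PUF proteins bind short motifs in the 3′ untranslated regions of messenger RNAs and mostly repress them. In the worm germ line FBF-1 and FBF-2 keep stem cells in the mitotic state, and PUF-8 acts in the same distal region. PUF-5 and its relatives PUF-6 and PUF-7, and the paralogues PUF-3 and PUF-11, are known for work in growing oocytes and early embryos, and PUF-3 and PUF-11 have also been tied to stem cell renewal. PUF-9 is expressed broadly in somatic tissue. The genes are grouped here as oocyte (puf-3, puf-11, puf-5, puf-6 and puf-7), stem cell (fbf-1, fbf-2 and puf-8) and broadly expressed (puf-9) paralogues.

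The sites were those of the authors' lists on genome build ce11. Replicate 1 had 24269 candidate sites, replicate 2 had 30000, and the reads of both pooled gave 30000. The authors label these longer lists as peaks and background, the input for a later threshold. A site found only in them is therefore a candidate and may be background, and weak ones cannot be told apart from it here. A shorter list held the 1341 sites kept after a threshold on the irreproducible discovery rate (IDR), and these were exactly the 1341 pooled sites with the highest signal, from 74.0 upward. The signal is the authors' score of a site, on a scale that is not stated, so values are set side by side only within 1 list. A gene's window ran from 500 bp upstream of its annotated start to 500 bp past its 3′ end. A site was counted at the start or at the 3′ end when its summit lay within 500 bp of it on either side. Read depth is unknown, since the lists hold no counts.

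The sites of the IDR list lay at 3 of the 9 genes, puf-3, puf-11 and puf-5, all of them oocyte paralogues. Those 3 genes held 7 such sites, 4 at 3′ ends and 3 upstream of starts, and none lay in a coding region. The stem cell genes, puf-9, puf-6 and puf-7 had only weaker, pooled sites. Over all protein-coding genes 8.23% had an IDR site in the window, 2.96% had 1 at the start and 5.41% had 1 at the 3′ end, against 3, 2 and 3 of the 9 PUF genes. With so few genes, chosen with earlier results known, no test was made of these counts. Sites at both ends were present at puf-3 and puf-11 in the IDR list, which 0.866% of protein-coding genes showed.

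The sequences under the upstream sites of puf-11 and puf-3 are given first, because these genes are paralogues and their sites lay in a stretch that both share. Each is written 5′ to 3′ on the strand of its gene, from the RefSeq assembly WBcel235, which has the coordinates of ce11, and the 11 capitals are centred on a pooled summit.
puf-11 upstream, chrIV:6421145-6421444: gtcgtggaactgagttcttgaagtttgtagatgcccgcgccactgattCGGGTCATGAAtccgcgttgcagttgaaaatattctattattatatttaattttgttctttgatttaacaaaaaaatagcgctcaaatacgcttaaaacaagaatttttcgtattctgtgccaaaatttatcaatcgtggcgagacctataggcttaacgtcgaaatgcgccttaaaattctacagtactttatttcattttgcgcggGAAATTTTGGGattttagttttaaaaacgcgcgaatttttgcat
puf-3 upstream, chrIV:13512163-13512422: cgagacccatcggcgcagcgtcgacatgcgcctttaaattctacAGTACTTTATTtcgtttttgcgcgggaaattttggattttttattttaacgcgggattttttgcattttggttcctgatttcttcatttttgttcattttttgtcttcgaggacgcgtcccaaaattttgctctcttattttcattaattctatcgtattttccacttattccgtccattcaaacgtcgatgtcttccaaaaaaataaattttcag
The gene starts lie to the right of both stretches. The flanks of 500 bp upstream aligned over 452 bases with 90.3% identity. The puf-11 summit 179 bp upstream of its start fell on the base 186 bp upstream in puf-3, and the nearest puf-3 summit lay 25 bp from that base. The stronger puf-11 summit, 387 bp upstream, fell on the base 396 bp upstream in puf-3, where the nearest summit was 185 bp away. The shared stretch therefore had a summit in both genes near the closer position and a summit in puf-11 alone at the farther position. The called interval of the puf-3 site, chrIV:13512145-13512600, covers the farther position as well, so only the summit differed there.

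puf-3 had the strongest site of the family, and it lay past the 3′ end. puf-3 (WBGene00004239) occupies chrIV:13510307-13512162 on the minus strand and lies inside an intron of afmd-2, a gene on the other strand. Its strongest summit, IV 13510162, was 145 bp past the 3′ end, with a signal of 188 in the pooled list. The nearest replicate sites had signals of 51.2 in replicate 1 and 162 in replicate 2, with summits 18 and 76 bp away. A neighbouring summit at IV 13510366, in the 3′ untranslated region, had a pooled signal of 114. It was supported unevenly, by 14.8 in replicate 1, rank 5040 of that list, and by 58.6 in replicate 2, rank 1212. The upstream summit, IV 13512373, lay 211 bp from the start with a pooled signal of 84.0, against 35.1 in replicate 1 and 48.2 in replicate 2. Each of these pooled summits also lay in intronic sequence of afmd-2, the strongest 938 bp from the start of afmd-2. None of them is therefore a site of puf-3 alone. In replicate 1 alone there were also weak coding sites at 10.2 and 8.12.

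Within 500 bp of puf-11 the strongest site lay upstream of the start, but it was shared with a neighbouring gene, and without it the strongest site was at the 3′ end. puf-11 (WBGene00022257) occupies chrIV:6421585-6423497 on the plus strand. The summit at IV 6421198, 387 bp upstream, had a pooled signal of 155, with 68.4 in replicate 1 and 97.8 in replicate 2. That summit lay 300 bp past the 3′ end of htp-2, which encodes a meiotic chromosome axis protein, and 2 bp inside the pseudogene WBGene00044752, so it is not a site of puf-11 alone. The summit nearer to puf-11, 179 bp upstream at IV 6421406, had a pooled signal of 80.0, with 29.7 in replicate 1 and 24.9 in replicate 2. At rank 7923 in replicate 2 it was the least even of the 7 sites. Past the 3′ end, the summit at IV 6423553 lay 56 bp away with a pooled signal of 108, 33.0 in replicate 1 and 78.0 in replicate 2.

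The stretches past the 3′ ends of this pair are shown because both carried IDR sites there and share part of their sequence.
puf-3 past the 3′ end, chrIV:13510107-13510306: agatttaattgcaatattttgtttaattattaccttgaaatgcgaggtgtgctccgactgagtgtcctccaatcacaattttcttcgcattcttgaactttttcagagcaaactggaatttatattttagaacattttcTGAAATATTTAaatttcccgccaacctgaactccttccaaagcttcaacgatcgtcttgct
puf-11 past the 3′ end, chrIV:6423498-6423697: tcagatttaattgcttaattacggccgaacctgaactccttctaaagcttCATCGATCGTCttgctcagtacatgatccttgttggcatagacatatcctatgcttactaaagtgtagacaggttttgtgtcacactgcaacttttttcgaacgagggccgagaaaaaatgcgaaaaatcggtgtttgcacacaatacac
The flanks aligned over 119 bases with 88.2% identity, which lie 148 to 269 bp past the 3′ end of puf-3 and 15 to 134 bp past that of puf-11. The puf-11 summit fell on the base 190 bp past the puf-3 end, 45 bp from the nearest puf-3 summit. Of the words of 50 bases in the windows, 17 of puf-3 were shared with puf-11. In the puf-11 window 246 words were repeated somewhere in the genome. By such words the flanks of puf-11 were 77.1% unique, against 99.7% for those of puf-3. In the 201 bases around each of the 7 IDR summits of the PUF genes every word of 50 bases was found once in the genome.

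puf-5 had its IDR site at the very 3′ end. puf-5 (WBGene00004241), at chrII:8575541-8577787 on the plus strand, had a summit at II 8577766 in the 3′ untranslated region, 21 bp before the end, with a pooled signal of 97.9. The nearest replicate sites had signals of 30.2 in replicate 1 and 71.7 in replicate 2, and replicate 1 held a further, stronger summit of 34.4 in the untranslated region. The summit lay 283 bp upstream of the start of the next gene, F54C9.9. At the start of puf-5 a summit 60 bp upstream had a pooled signal of 71.6, just under the lowest IDR signal of 74.0, with 25.2 in replicate 1 and 45.0 in replicate 2. It stood at rank 1439 of the pooled list. The stretch upstream of puf-5 is shown as that of the start site nearest to the edge of the IDR list.
puf-5 upstream, chrII:8575381-8575540: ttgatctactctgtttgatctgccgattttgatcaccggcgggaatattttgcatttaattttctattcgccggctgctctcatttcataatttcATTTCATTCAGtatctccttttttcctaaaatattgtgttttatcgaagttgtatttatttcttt

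**Figure D1:**
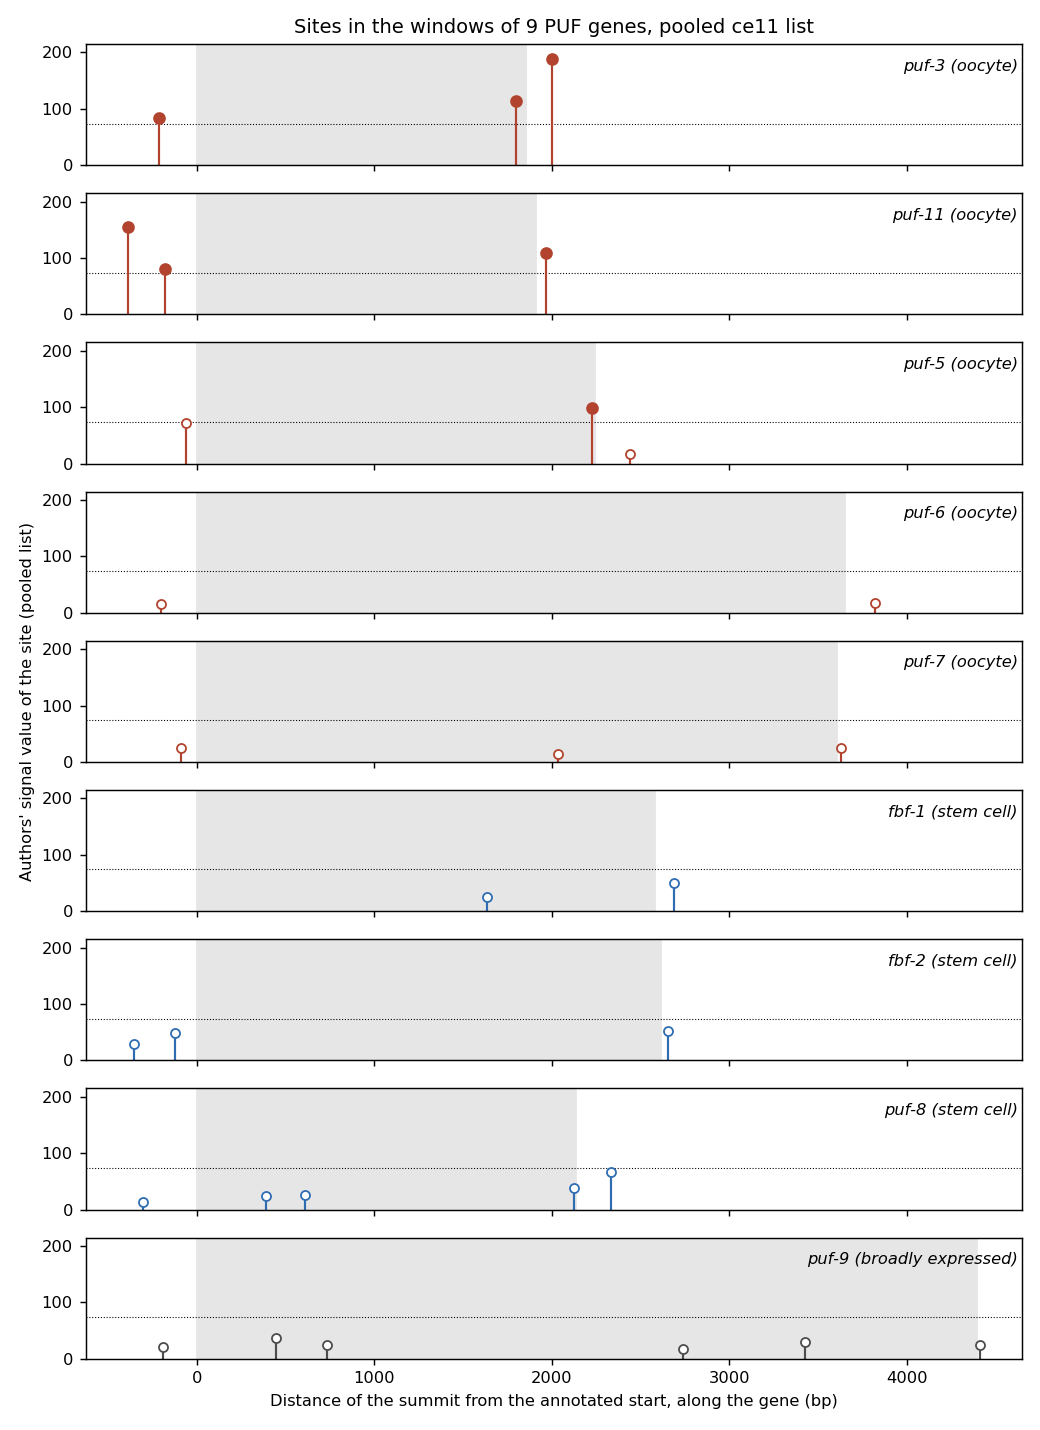
Signal of every pooled site (y axis, authors' score) against its distance from the annotated start along the gene in bp (x axis), 1 panel per PUF gene. Filled points are IDR sites, open points other pooled sites, the grey band the gene and the dotted line the lowest IDR signal of 74.0. The 7 filled points lie at puf-3, puf-11 and puf-5, near the edges of the grey band or outside it.

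For puf-6 and puf-7, the other oocyte paralogues, the strongest pooled site of the gene was weaker than that of any other member. puf-6 (WBGene00004242, chrII:13039792-13043445) had pooled signals of 16.7 and 15.8, close to the lowest value of the pooled list, 14.2. Its strongest sites reached 8.08 in replicate 1 and 11.7 in replicate 2, and they lay at opposite ends of the gene. puf-7 (WBGene00004243, chrIV:5486713-5490322) had pooled signals of 25.2 at the 3′ end and 24.6 at the start, 19.7 and 19.9 in replicate 2, and no candidate site in replicate 1. Both values of puf-7 lay near the median of the pooled list, 23.0.

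These 2 genes are also the ones whose sequence is least unique. Their coding sequences were 98.5% identical and their upstream flanks 96.4%. Of all words of 50 bases in the window, 49.2% in puf-6 and 48.1% in puf-7 were found once in the genome, whereas the figure was 99.3% for puf-3, 91.4% for puf-11, 84.7% for fbf-1 and 85.4% for fbf-2, and 100% for puf-5, puf-8 and puf-9. Around the strongest puf-6 summit no word was unique, and around the others of the pair 76.3 to 99.3% were. Whether the authors called sites from uniquely aligned reads only is not given in the sources used here, and the part of repeated sequence in the low values of puf-6 and puf-7 was not tested.

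**Figure D2:**
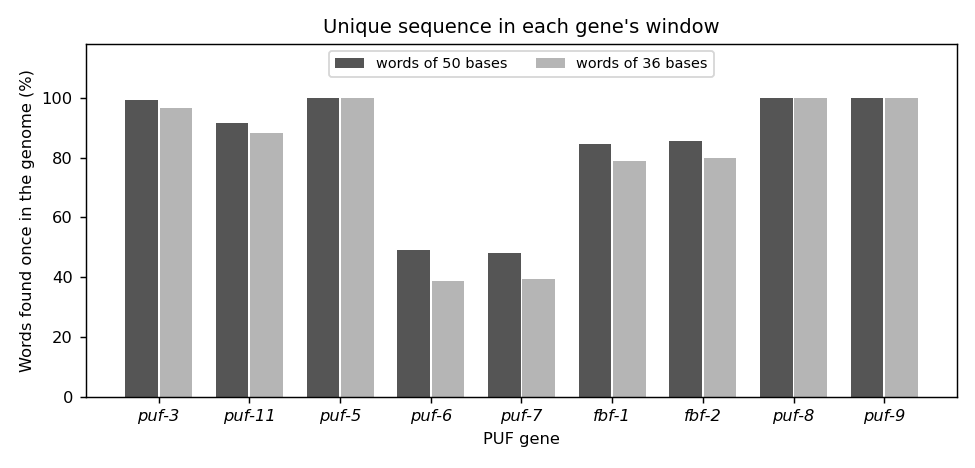
Percent of all words of 50 bases (dark bars) and of 36 bases (light bars) in each gene's window that occur once in the genome, counting both strands. puf-6 and puf-7 stand lowest, at 49.2 and 48.1% with 50 bases, and fbf-1 and fbf-2 next, at 84.7 and 85.4%.

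In each of the stem cell genes the strongest pooled site lay past the 3′ end. These sites stood above 90.3% (fbf-1), 90.5% (fbf-2) and 94.2% (puf-8) of the pooled list. In replicate 1 the strongest site of each gene stood lower in its list, at 65.3, 79.0 and 74.1%. None of the pooled sites of these genes was in the IDR list. puf-8 (WBGene00004244, chrII:7296110-7298247), which acts in the proliferation and meiotic entry of germ cells, came closest. Its strongest pooled summit, 197 bp past the 3′ end, had a signal of 66.0. In replicate 2 a summit 32 bp past the end had 62.6, rank 994. It lay 165 bp from the strongest pooled summit and 41 bp from another pooled summit of 38.4. Replicate 1 had only 10.2, rank 12174, at a summit 1 bp from the strongest pooled one. The strongest puf-8 site of replicate 1 was a coding one of 13.6. The strongest pooled summit also lay in the coding sequence of the next gene, C30G12.6, 104 bp from the start of that gene.

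fbf-1 and fbf-2, which encode near-identical stem cell regulators, had almost the same strongest signal. fbf-1 (WBGene00001401, chrII:6078263-6080843) had 50.9 at a summit 109 bp past the 3′ end, with 12.1 in replicate 1 and 40.0 in replicate 2. fbf-2 (WBGene00001402, chrII:6088863-6091480) had 51.4 at a summit 38 bp past the 3′ end, with 14.8 and 38.9. The fbf-1 summit lay in the coding sequence of the gene H12I13.6 and in the non-coding RNA gene H12I13.5, so it is not a site of fbf-1 alone.

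The pair differed at the starts. fbf-2 had pooled summits 120 and 354 bp upstream, with signals of 47.9 and 29.3, and the nearer was found 0 bp away in replicate 1 (11.97) and 3 bp away in replicate 2 (34.0). fbf-1 had no site at its start in any of the 4 lists. The fbf-2 start site was weak in replicate 1, at rank 8609 of 24269, and the difference between the genes was not tested. The stretches of 180 bp just upstream are printed to compare the genes.
fbf-2 upstream, chrII:6091481-6091660: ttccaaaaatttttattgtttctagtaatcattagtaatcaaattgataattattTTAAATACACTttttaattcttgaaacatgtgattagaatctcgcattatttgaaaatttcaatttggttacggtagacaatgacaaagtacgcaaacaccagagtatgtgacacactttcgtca
fbf-1 upstream, chrII:6080844-6081023: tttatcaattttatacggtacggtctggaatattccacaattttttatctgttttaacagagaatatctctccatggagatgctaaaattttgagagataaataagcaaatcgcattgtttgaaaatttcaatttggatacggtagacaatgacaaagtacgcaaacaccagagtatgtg
The 500 bp flanks aligned over 206 bases with 85.4% identity, and the fbf-2 summit fell on the base 100 bp upstream of fbf-1, 1736 bp from the nearest fbf-1 summit. The flanks of fbf-1 were 97.2% unique by words of 50 bases, and 521 words of the window, mostly in the gene, were shared with fbf-2.

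puf-9, the broadly expressed gene, had 6 pooled sites spread over its length and no strong one. puf-9 (WBGene00004245) lies at chrX:5841592-5845987 on the plus strand and was the only X-linked member. The strongest pooled summit had a signal of 36.4 and lay in an intron, 448 bp inside the start. In replicate 2 the strongest was 33.9 and in replicate 1 it was 18.3, both in the 3′ untranslated region and 797 to 1042 bp before the 3′ end. At the 3′ end itself the pooled signal was 25.05, with 31.8 in replicate 2 and no site in replicate 1.

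The ranks of the genes by their strongest pooled site followed these classes only in part. Among the 11124 protein-coding genes with a pooled site in the window (55.7% of all), puf-3 ranked 162, puf-11 280 and puf-5 903. puf-8 ranked 2061, fbf-2 3136, fbf-1 3201 and puf-9 5154, and puf-7 and puf-6 were at 7700 and 10333. The median of the strongest signal was 51.4 over the 9 genes and 34.2 over all genes with a site. It was 97.9 for the oocyte genes, which hold both the strongest and the weakest members, 51.4 for the stem cell genes and 36.4 for puf-9. The windows of the 9 genes had a median length of 3581 bp, against 3026 bp over all protein-coding genes, and a longer window can hold more sites.

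**Figure D3:**
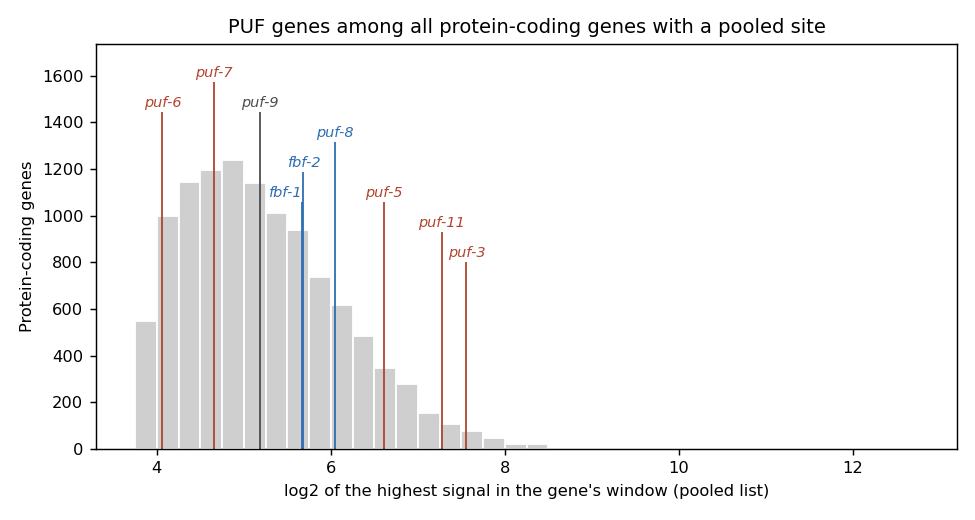
Number of protein-coding genes (y axis) by log2 of the highest pooled signal in the gene's window (x axis), over the 11124 genes with a pooled site, with the 9 PUF genes as lines (oocyte red, stem cell blue, broadly expressed grey). puf-3, puf-11 and puf-5 stand on the right, puf-6 at the left edge, and line heights carry no value.

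The replicates gave the same leading genes and differed over the rest. As the share of a list's sites with a lower signal, puf-3 stood at 99.5% ± 0.324 (SD, n = 2), puf-11 at 99.3% ± 0.496 and puf-5 at 97.6% ± 0.0582. fbf-1 stood at 78.1% ± 18.2, fbf-2 at 84.7% ± 8.05, puf-8 at 85.4% ± 16.0 and puf-9 at 87.4% ± 0.698, and of these 4 genes only puf-8 and fbf-1 kept 1 order in both replicates, with puf-8 the higher (74.1 against 65.3% in replicate 1 and 96.7 against 91.0% in replicate 2). puf-6 stood at 12.2% ± 12.4. The order of puf-3 and puf-11 was also not fixed, since puf-11 led in replicate 1 and puf-3 in replicate 2. All 7 IDR sites of the family had a summit within 100 bp in both replicates, which held for 5 of the other 23 pooled sites. Among those 23, 10 had such a summit in replicate 1 and 17 in replicate 2. The IDR threshold itself used the replicates, so the first of these counts is a description.

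When each replicate's own 1341 strongest sites were taken, puf-3, puf-11 and puf-5 were found in both, and puf-8 in replicate 2. The counts were 3 of 9 genes in replicate 1, where 8.36% of protein-coding genes had such a site, and 4 of 9 in replicate 2, where 8.14% had.

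**Figure D4:**
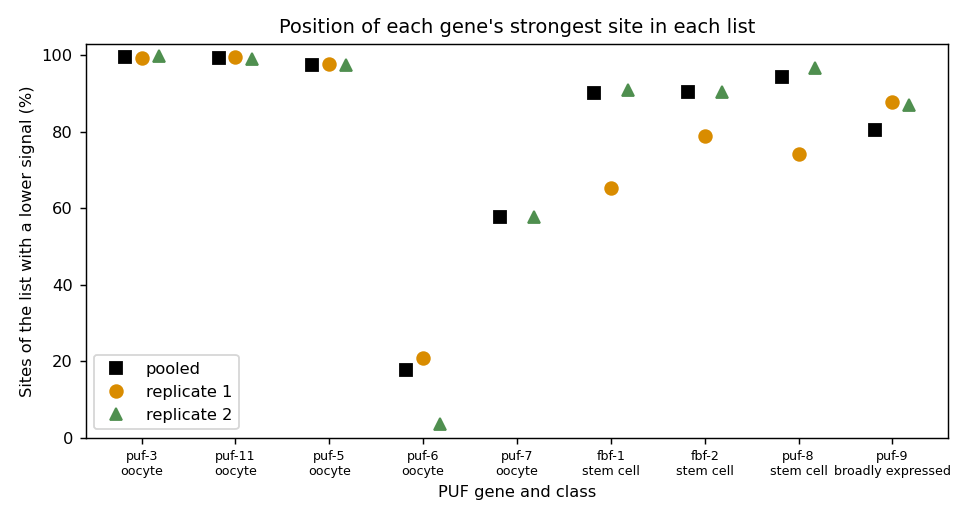
Share of the sites of a list with a lower signal than the gene's strongest site, in percent (y axis), for each PUF gene (x axis) in the pooled list (squares), replicate 1 (circles) and replicate 2 (triangles). The 3 symbols of puf-3, puf-11 and puf-5 all lie above 97%, those of fbf-1, fbf-2 and puf-8 are split between replicates, and puf-7 has none for replicate 1.

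Starts and 3′ ends were compared within each gene. In the pooled list 8 of the 9 genes had a site at the start and all 9 at the 3′ end, against 32.0% and 39.7% of protein-coding genes, and 8 had both, against 22.5%. The 3′ end was the stronger in 6 of those 8. The ratio of the strongest 3′ signal to the strongest start signal was 2.24 for puf-3, 1.37 for puf-5 and 2.80 for puf-8, and it was 0.688 for puf-9. For puf-11 it was 0.699 with the summit beside htp-2 and 1.35 when that summit was counted for htp-2, its nearest gene, so that 7 of 8 genes then had the stronger 3′ end. puf-6 at 1.06, puf-7 at 1.03 and fbf-2 at 1.07 were nearly even. The median of 1.07 over the 8 genes was close to that of 1.06 over all 4491 genes with both, of which 53.3% had the stronger signal at the 3′ end. The 6 of 8 was not tested against that share.

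In the replicates the direction held for puf-3 (1.46 and 3.37), for puf-5 (1.36 and 1.59) and for fbf-2 (1.23 and 1.14). It did not hold for puf-8, which had 0.753 in replicate 1 and 3.79 in replicate 2, nor for puf-7, which had 0.992 in replicate 2 and no site in replicate 1. puf-9 had a ratio of 1.01 in replicate 2 and no 3′ site in replicate 1. For puf-11 the direction rested on the summit shared with htp-2. With it the ratios were 0.483 and 0.798 in replicates 1 and 2, and with the flank of 200 bp, which leaves it out, they were 1.11 and 3.14. With the nearest gene only, they were 1.11 and 0.798, because the replicate 2 summit lay nearer to puf-11 than to htp-2. An opposite lead of puf-3 and puf-11 thus depended on the assignment of that summit.

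**Figure D5:**
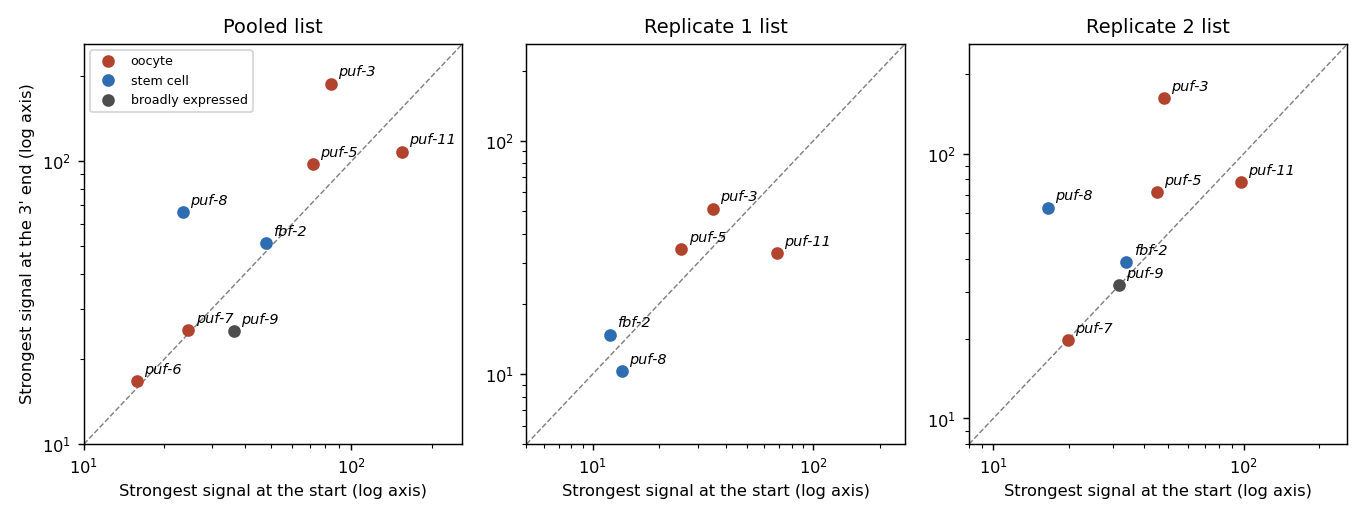
Strongest signal at the 3′ end (y axis, log scale) against the strongest at the start (x axis, log scale) in the pooled and replicate lists, for PUF genes with a site at both. The dashed line marks equal signals: puf-3 and puf-5 lie above it in all 3 lists, puf-11 lies below it with the summit beside htp-2 counted (above it, at 1.35 in the pooled list, without), and puf-8 changes sides in replicate 1.

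A string of 8 letters recurred at some sites of puf-3 and puf-11, at 1 of fbf-2 and at none of puf-5. It was picked after the stretches above had been read and was counted on those same stretches, so the counts are a description. The letters TTTCCCGC are a form of the motif of E2F factors, a family to which the worm protein EFL-1 belongs. Searched on both strands in the 201 bases around a summit, they occurred at 3 of the 7 IDR sites of the PUF genes and at 1 of their 23 other pooled sites. Over all nuclear sites the share was 2.27% of 1319 IDR sites and 1.07% of 29977 pooled sites. At IDR sites, the puf-11 match lay at chrIV:6421397-6421404, 2 bp from the nearer upstream summit. The puf-3 matches lay at chrIV:13512350-13512357, 16 bp from the upstream summit, and at chrIV:13510147-13510154, 8 bp from the strongest summit. The match outside the IDR list lay at chrII:6091916-6091923, 82 bp from the fbf-2 pooled summit 354 bp upstream of the start. The upstream matches of puf-3 and puf-11 lie in the duplicated stretch and so do not count as independent. A match is a string of letters only, and no binding of an E2F factor was measured.

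Genes that act with PUF proteins, and genes whose messages they bind, were read from lists that share glp-1 and lst-1. Of 19 matched partners and upstream genes of FBF and PUF proteins, 3 had an IDR site in the window, against the background of 8.23%. These were cgh-1 (signal 287), an RNA helicase of germ granules, car-1 (128), its partner in RNA granules, and rnp-8 (91.7), a partner of the poly(A) polymerase GLD-2, and all 3 sites were at the 3′ end. Of 16 genes whose messages are known as FBF or PUF targets, 4 had an IDR site. htp-1 (116), a meiotic axis gene, and mex-3 (93.7), which encodes a KH-domain RNA-binding protein, had it at the 3′ end, and egg-4 (113), a gene of egg activation, and gld-1 (79.9), which encodes a translational repressor that promotes entry into meiosis, had it at the start. The median of the strongest pooled signal was 48.8 for the partners and 59.4 for the targets with a site, against 34.2 over all genes. The Notch receptor gene glp-1 and its targets sygl-1 and lst-1 drive the stem cell state with FBF. Their strongest pooled signals were 42.2, 52.2 and 52.7, beside 50.9 for fbf-1 and 51.4 for fbf-2. These genes were picked after their values were seen, and the 19 matched partners ran from 14.7 to 287. fog-3 and hbl-1, a germline sex determination gene and a heterochronic gene, had no pooled site.

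Among other maternal RNA-binding protein genes, 5 of 10 CCCH zinc finger genes and 7 of 11 genes of maternal messenger ribonucleoproteins had an IDR site, 5 and 6 of them at the 3′ end and 1 of each list at the start. The CCCH genes, which encode regulators of oocyte maturation and embryonic fates, were mex-1 (139), pos-1 (136), oma-1 (106), pie-1 (82.0) and mex-5 (81.9). The others were cgh-1 and car-1, already given, the Y-box genes cey-2 (227.6), cey-4 (133) and cey-3 (107), and the cap-binding genes ife-3 (218) and ife-1 (85.4). The PUF genes had 3 of 9, with 3 at the 3′ end and 2 at the start. Over all protein-coding genes the shares were 8.23% in the window, 5.41% at the 3′ end and 2.96% at the start. These shares were not tested against each other.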

How the data were processed

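Chromatin from 2 replicates was analysed as the authors' lists of called sites on build ce11. Per the file listings deposited with each sample, sites were called on each replicate and on pooled reads with a control, and a further list was thresholded by IDR. The replicate and pooled lists are labelled as peaks and background, so their sites were treated as candidates. The signal of each site is the value that the authors deposited, on a scale not stated. The aligner, the site caller, their versions and the cutoff for IDR were not given in the sources used here. The summit was taken as the start plus the offset, and positions count from 1. Gene positions came from Ensembl release 115 (WBcel235), and site ends were checked to lie inside the chromosomes of the RefSeq assembly of that build, from which sequences were read. All 9 genes were matched by symbol. Of the other listed names, puf-4, puf-10 and ntl-1 matched no gene.

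The members and the gene lists were chosen with earlier results of these data known. There was 1 group, so no test between groups was made; counts are given beside the share over all protein-coding genes, and values per replicate with mean and SD (n = 2). Window assignment was tested on simulated data. Genes were named by a rule that took every member, the matched PUF gene outside the list and listed pathway genes with an IDR site. It also took genes within 1000 bp of a member's IDR or strongest summit. Outside this rule, glp-1, sygl-1 and lst-1 were added after their values were seen. Also outside it, fog-3 and hbl-1 were named as targets without a pooled site. The CCCH and maternal messenger ribonucleoprotein genes with an IDR site were named outside it as well. Repeated sequence was measured as words of 50 bases found once in the genome, and paralogues were aligned with Biopython 1.88. Calculations used Python 3.11.15 with numpy 2.4.6 and pandas 2.3.3. Lists on build ce10 were not used here, and no coordinates were converted.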

Additional observations from a re-analysis of the deposited data

How the results depend on the processing

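Of 32 recomputed counts of PUF genes, 29 stayed within 1.5 times the reported count and 3 did not, all 3 at the start. The count with an IDR site at the start was 2 and became 1 (puf-11) with a flank of 200 bp, 1 (puf-11) with the stronger 50% of the IDR list, and 1 to 3 with a single replicate's strongest sites. Without replicate 1 puf-3 was lost there, and without replicate 2 puf-5 was gained. The IDR genes puf-3, puf-11 and puf-5 were the same with flanks of 200 and 1000 bp, with interval overlap, with the nearest gene only and with the RefSeq annotation. With the stronger 50% of the list puf-5 was lost. Where each summit counted only for its nearest gene, the 155 summit went to htp-2, leaving puf-11 at 98.2% of the pooled list in place of 99.3%, and the strongest puf-8 summit to C30G12.6, and puf-8 stood at 82.6% in place of 94.2%. The median position of the 9 genes was 90.5% in the pooled list and 91.0% in replicate 2. In replicate 1 it was 83.5% over the genes with a site, which leaves out puf-7. Of the genes with sites at both ends, 6 of 8 had the stronger 3′ end. With alternatives chosen after seeing the data this was 7 of 8 with the nearest gene only, 5 of 5 with a flank of 200 bp, and 3 of 5 and 5 of 7 in replicates 1 and 2. The ratio of 3′ end to start turned to 1.35 for puf-11 under both the flank of 200 bp and the nearest gene, to 1.15 for puf-9 with the flank of 200 bp and to 1.01 in replicate 2, to 0.992 for puf-7 in replicate 2 and to 0.753 for puf-8 in replicate 1, against 3.79 in replicate 2. Words of 36 bases, also chosen after seeing the data, lowered the median share of unique words from 91.4 to 88.1%. No paired analysis was possible because there was 1 group. Depth is unknown, so a gene without a site may hold one below the lists' lowest signal.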

Other observations

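puf-12, a PUF gene outside the 9 and the relative of human PUM3, had no IDR site. Its strongest pooled signal was 31.8, at a summit 61 bp before the 3′ end, inside the 3′ untranslated region of the convergent gene ZK945.4.

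The other 3 strings of letters were searched on both strands in the 300 bases from 250 upstream to 50 past each start, and none of them contains another. TATAAA was found at fbf-1 and fbf-2 and in 37.9% of 19973 promoters, TTTGAA at 7 of the 9 genes and in 62.5%, and GAGAGA at fbf-1 and in 21.8%. TTTCCCGC was found in this window at puf-3 and puf-11 and in 1.57% of promoters.

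The 201 bases around the 7 IDR summits of PUF genes held 25.9 to 40.3% G and C, with a median of 35.8%, against a median of 39.3% over all 1319 nuclear IDR sites. Around the upstream puf-3 summit 85.1% of the bases were soft-masked as repeats.

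Other genes lay within 1000 bp of a leading summit. The 3′ ends of dcap-2 and seld-1 lay 996 and 919 bp from puf-3 summits, that of B0273.115 lay 144 bp from the strongest puf-7 summit, and the pseudogene WBGene00017684 ended 153 bp from the strongest fbf-2 summit. The strongest puf-6 summit lay inside the pseudogene WBGene00044057. The non-coding RNA genes W06B11.7 and W06B11.9 lay 690 and 679 bp from the strongest puf-9 summit.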
